A study of Mus musculus with 5 samples.

Results

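The 9 genes described here serve cell division. Tk1, Mcm3 and Pcna act in DNA replication, Plk1, Birc5, Top2a and Mki67 in mitosis, and Hmgb2 and H2afz encode chromatin proteins that are abundant in dividing cells. They were taken by name, with earlier results of these data known, and all 9 were among the 1457 genes of the deposited table. Messenger RNA was sequenced from whole pancreas of female C57BL/6 mice aged 8 weeks. Wild-type mice given saline were represented by 1 library (replicate 1), wild-type mice given caerulein by 2 (replicates 1 and 2), and miR-21-/- mice given caerulein by 2 (replicates 1 and 3). Caerulein, an analogue of the hormone cholecystokinin that inflames the pancreas when given repeatedly, was injected at 50 µg/kg, with the pancreas collected 24 h from the first dose. No saline library of the knockout was analysed here, and the labels do not describe the knockout allele. Nor is a library tied to a single mouse. P-values therefore measure the spread between these libraries, pooled over genes of like mean level, and that spread may be technical.

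A cell that enters division first copies its DNA and then separates the copies. Replication genes are switched on late in G1 by E2F transcription factors, while many mitotic genes are repressed in resting cells and switched on later, through CHR elements and CCAAT boxes in their promoters. In adult pancreas few acinar cells divide, and after caerulein injury acinar, stromal and immune cells can all enter the cell cycle. In RNA from whole tissue, fewer cells of a type and less RNA per cell cannot be told apart.

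The unit of the deposited values is not stated, and whether they are scaled to transcript length is unknown, so levels are compared between libraries for 1 gene and not between genes. The genes stand in falling order of the wild-type caerulein mean relative to saline (0 exceptions), and the smallest of the genes' largest folds from saline is 2.528. Comparisons with saline are thus made in a table that seems selected on this contrast. The lowest value, 0.01, was given for 540 genes in saline, against 31 to 89 in the caerulein libraries. Of 32 acinar symbols searched, the table held 3 (Prss1, Prss3 and Klk1), with sums of 10.84 in saline and 29.21 to 947.71 after caerulein. The pancreatic identity of the libraries could thus be checked against these 3 alone. Prss1 was at 0.01 in saline and in both wild-type caerulein libraries, which leaves Prss3 and Klk1 there.

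The promoters of 6 of the 9 genes are shown as examples of the roles: Mcm3 for replication, the only one with an E2F word (after the start, outside the bases printed), Plk1, Mki67 and Top2a for mitosis, each with more than 1 CHR word, and Hmgb2 and H2afz, which went opposite ways between libraries. Each line gives the 250 bases before the annotated RefSeq start (GRCm38.p6), on the gene's own strand, with CHR words (TTTGAA or TTTAAA) and CCAAT words in capitals on either strand. The positions are chr1:20820313-20820562 (minus strand) for Mcm3, chr7:122159185-122159434 (plus) for Plk1, chr7:135716380-135716629 (minus) for Mki67, chr11:99024190-99024439 (minus) for Top2a, chr8:57511593-57511842 (plus) for Hmgb2 and chr3:137864237-137864486 (plus) for H2afz, which RefSeq names H2az1.
Mcm3: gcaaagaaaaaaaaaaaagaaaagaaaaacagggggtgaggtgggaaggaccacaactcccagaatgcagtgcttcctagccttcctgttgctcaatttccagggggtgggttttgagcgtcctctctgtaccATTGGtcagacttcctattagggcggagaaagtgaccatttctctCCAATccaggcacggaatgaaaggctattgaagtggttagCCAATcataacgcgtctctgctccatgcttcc
Plk1: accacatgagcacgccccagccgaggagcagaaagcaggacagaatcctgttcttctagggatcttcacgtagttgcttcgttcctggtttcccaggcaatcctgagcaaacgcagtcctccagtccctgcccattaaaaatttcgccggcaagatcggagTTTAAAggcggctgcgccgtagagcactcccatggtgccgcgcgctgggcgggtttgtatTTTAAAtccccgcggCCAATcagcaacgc
Mki67: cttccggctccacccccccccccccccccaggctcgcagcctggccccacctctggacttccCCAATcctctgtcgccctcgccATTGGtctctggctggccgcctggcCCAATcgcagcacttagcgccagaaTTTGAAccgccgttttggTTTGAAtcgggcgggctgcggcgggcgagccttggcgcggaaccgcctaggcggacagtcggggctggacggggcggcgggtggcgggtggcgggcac
Top2a: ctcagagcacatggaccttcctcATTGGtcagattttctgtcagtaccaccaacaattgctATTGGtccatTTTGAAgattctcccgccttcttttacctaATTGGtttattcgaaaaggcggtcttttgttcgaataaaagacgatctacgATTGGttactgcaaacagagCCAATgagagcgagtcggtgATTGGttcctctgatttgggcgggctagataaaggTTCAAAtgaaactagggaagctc
Hmgb2: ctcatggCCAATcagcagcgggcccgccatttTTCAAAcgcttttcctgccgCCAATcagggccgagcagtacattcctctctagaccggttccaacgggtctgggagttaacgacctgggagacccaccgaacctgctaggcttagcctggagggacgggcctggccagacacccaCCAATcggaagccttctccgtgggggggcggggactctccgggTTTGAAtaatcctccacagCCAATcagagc
H2afz: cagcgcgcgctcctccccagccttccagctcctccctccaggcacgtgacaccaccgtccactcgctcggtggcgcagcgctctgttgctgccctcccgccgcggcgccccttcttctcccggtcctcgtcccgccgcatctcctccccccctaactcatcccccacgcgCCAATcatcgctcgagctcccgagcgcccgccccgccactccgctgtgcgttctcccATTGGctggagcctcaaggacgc

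A CHR word lay in the window from 250 bases before to 50 after the start in 4 of 4 mitotic genes, 1 of 3 replication genes (Tk1) and 1 of 2 chromatin genes (Hmgb2), against 27.6% of 32851 promoter windows of the same length. Plk1 held it at -89, -29 and 31, Mki67 at -116 and -98, Top2a at -179 and -23, and Birc5 at -220, counted from the start to the first base of the word. The E2F words searched (TTTCGCGC and TTTGGCGC, either strand) were found in 1 of the 9, Mcm3 at 39, and in 0.813% of all windows. CCAAT words were present in 2 of 3 replication, 3 of 4 mitotic and 2 of 2 chromatin genes, against 37.4% of windows, with 6 copies in Top2a and 4 in Hmgb2. Words of different kinds did not overlap in the 9 windows. These are matches of letters in a window and no binding was measured.

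Among the replication genes, Tk1, thymidine kinase of the salvage pathway, was 0.46 in saline. After caerulein it reached 22.15 in replicate 1 and 21.62 in replicate 2 of wild type, and 23.44 in replicate 1 and 15 in replicate 3 of the knockout, the order in which values are given from here on. The 4 caerulein libraries stood 32.61 to 50.96 times above saline and differed among themselves by 1.56-fold, the smallest spread among the 9 genes. The folds are not scaled for the low sum of the saline library. Over all genes of the table it was 2818.21, against 23254.98 to 38627.97 in the caerulein libraries. Mcm3, a subunit of the helicase that opens the double strand, was 0.01 in saline, 8.9 and 10.64 in wild type and 14.04 and 3.79 in knockout, so the 2 knockout libraries were the highest and the lowest of the 4. Pcna, the clamp that holds DNA polymerase on its template, was 4.6 in saline, 44.91 and 42.56 in wild type and 87.42 and 31.92 in knockout. It had the highest saline value of the 9 genes; the wild-type libraries lay within 1.06-fold of each other and the knockout libraries differed 2.74-fold. The mouse genome holds Pcna pseudogenes, between which and Pcna short reads can be divided.

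Among the mitotic genes, Plk1, a kinase that drives entry into and exit from mitosis, was 0.01 in saline, 5.59 and 3.05 in wild type and 10.55 and 4.16 in knockout. Birc5, survivin of the chromosomal passenger complex, was 0.01 in saline, 10.29 and 13.48 in wild type and 9.57 and 8.44 in knockout. Birc5 varied little among the caerulein libraries, and its 2 knockout values lay below both wild-type values. Top2a, the topoisomerase that untangles sister chromosomes, was 0.01 in saline, 15.26 and 3.65 in wild type and 4.41 and 6.8 in knockout. Its high value came from wild-type replicate 1, which was 4.18 times replicate 2. Mki67, the Ki-67 protein that coats mitotic chromosomes, was 0.02 in saline, 12.94 and 7.63 in wild type and 13.08 and 6.51 in knockout, with 1 high and 1 low library in each genotype.

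Both chromatin genes varied widely among the caerulein libraries, Hmgb2 the most of the 9 genes (6.12-fold). Hmgb2, a DNA-bending high mobility group protein, was 0.01 in saline, 77.01 and 12.59 in wild type and 24.82 and 57.68 in knockout. H2afz, the histone variant H2A.Z, was 0.4 in saline, 35.39 and 79.46 in wild type and 112.84 and 32.48 in knockout. Hmgb2 was high in wild-type replicate 1 and knockout replicate 3, where H2afz was low, and the reverse held in the other two libraries. H2afz has a near-identical paralog, H2afv, and Hmgb2 is similar to Hmgb1, so reads may be shared with these genes.

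**Figure D1:**
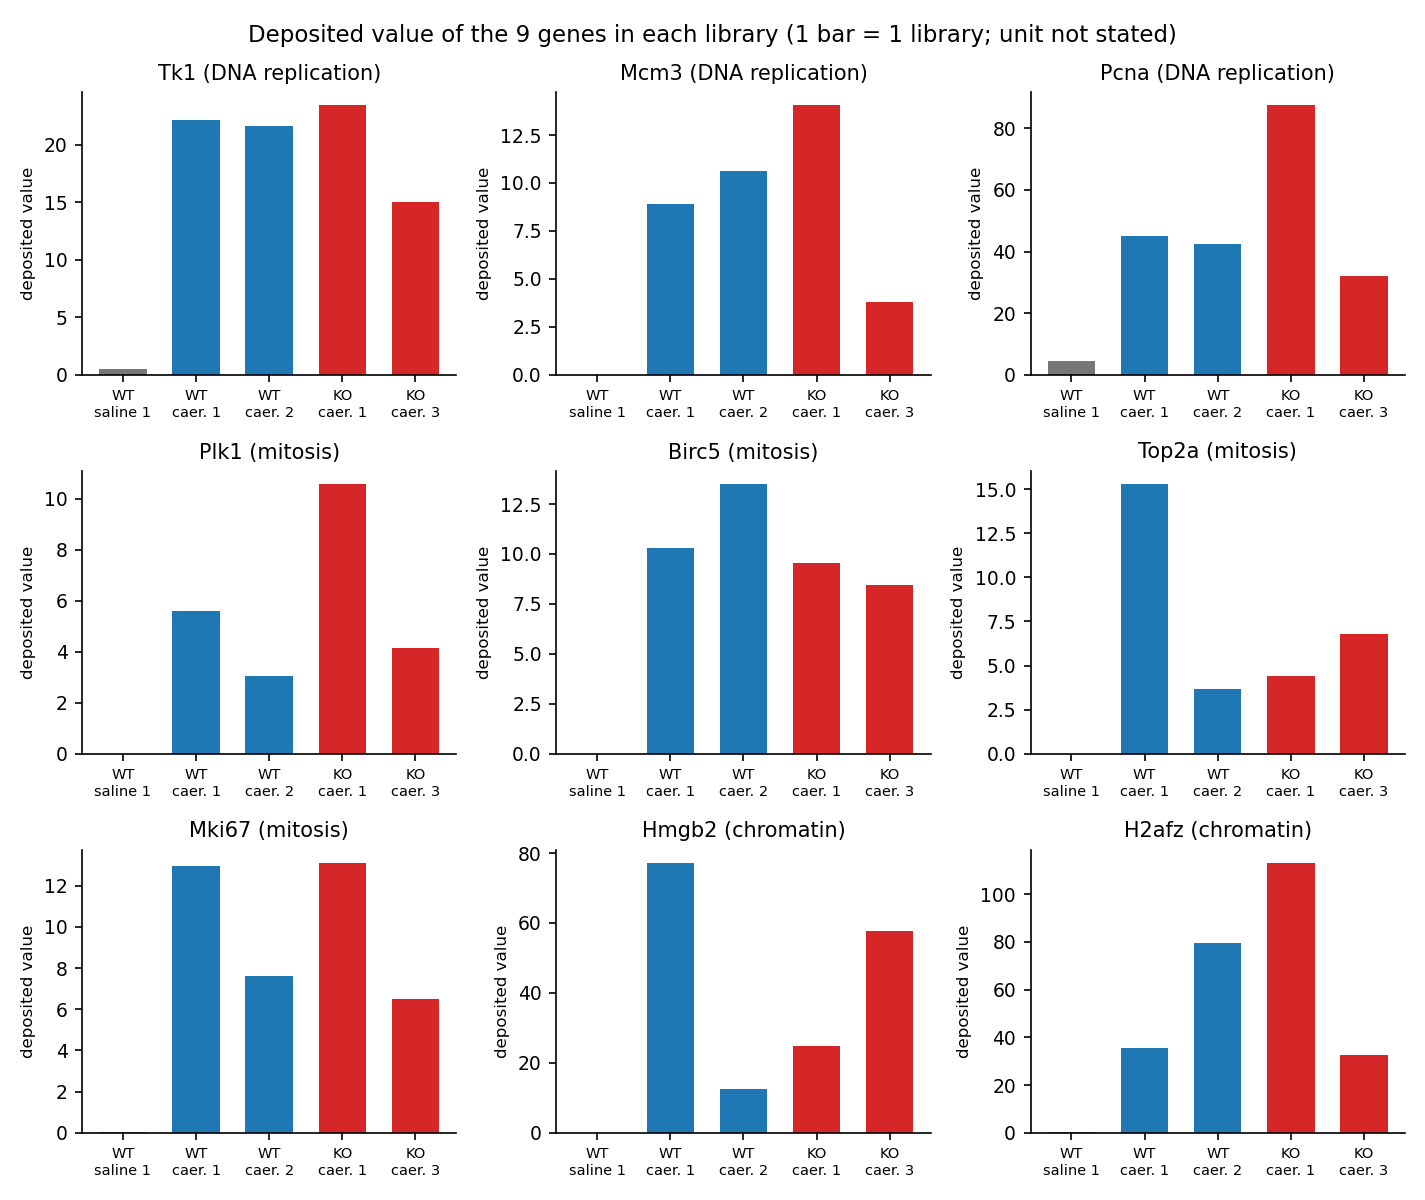
Bars give the deposited value (unit not stated) of each of the 9 genes in the saline library (grey), the wild-type (WT, blue) and the miR-21 knockout (KO, red) caerulein (caer.) libraries, 1 bar per library. All 9 genes were higher in each caerulein library than in saline, and Hmgb2 and H2afz have opposite patterns among the caerulein libraries.

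Caerulein against saline in wild type was tested with limma on log2(value + 1), with adjustment over 1429 genes. Of the 9 genes 8 rose, namely 3 of 3 replication, 3 of 4 mitotic and 2 of 2 chromatin genes, where 57.3% of all tested genes were called higher. All 9 passed the filter on low values. Because the tested genes appear to have been chosen for their distance from saline, this count adds no evidence that division genes stand apart. The adjusted p-values of single genes against saline share this limit, since the adjustment covers only genes that seem so chosen. The number of genes called, 819, was 377 without knockout replicate 1, 509 without knockout replicate 3 and 511 without wild-type replicate 1. The median log2 difference of the 9 was 3.43, against 2.71 for all tested genes. H2afz rose by a log2 difference of 5.27 (SE 1.08, limma adjusted p = 0.000162) and Hmgb2 by 5.01 (SE 1.05, adjusted p = 0.0001881). Among the replication genes Tk1 rose by 3.97 (SE 1.05), Mcm3 by 3.41 (SE 1.10) and Pcna, the smallest rise of the 8, by 2.997 (SE 1.10). Birc5 rose by 3.66 (SE 1.03), Mki67 by 3.43 (SE 1.05) and Top2a by 3.11 (SE 1.38, limma adjusted p = 0.04372). Plk1 did not pass, with a difference of 2.36 (95% interval -0.999 to 5.71, limma adjusted p = 0.2112). In saline 5 of the 9 genes were listed at 0.01, so no fold is given for them, and on the log2(value + 1) scale the change of such low genes is understated.

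Knockout caerulein, set against the same wild-type saline library, differs from it in genotype as well as treatment. Here 7 of the 9 genes rose, against 60.3% of tested genes called higher, and the median of the 9 was 3.31 against 2.80 for all. H2afz rose by 5.46 (SE 1.08) and Hmgb2 by 5.27 (SE 1.05). Tk1 stood 3.76 above saline (SE 1.05), Mcm3 3.07 (SE 1.10) and Pcna 3.27 (SE 1.10), and all 3 passed. Birc5 (3.31, SE 1.03) and Mki67 (3.33, SE 1.05) passed too. Plk1 (2.93, SE 1.71, limma adjusted p = 0.1188) and Top2a (2.69, SE 1.38, limma adjusted p = 0.07517) did not. Both comparisons use the same saline library and are not independent. In all, 9 of 9 genes were above saline in each of the 4 caerulein libraries, as were 87.6% of tested genes. Without knockout replicate 1, the wild-type count was 5 of 9, the knockout count 1 of 9 (Hmgb2) and the knockout count over all genes 29 in place of 863; without knockout replicate 3 the last was 399, and Top2a did not pass in wild type (limma adjusted p = 0.1694). The wild-type differences are the same without a knockout library, and the estimate of the spread alone changes: without knockout replicate 1 the limma adjusted p was 0.07777 for Mcm3, 0.06988 for Pcna and 0.0917 for Top2a. Without wild-type replicate 1 Pcna and Top2a did not pass in wild type. Plk1 and Top2a passed in the knockout without either wild-type replicate, again with the same differences. With a pseudocount of 0.1 all 9 genes passed in both comparisons, Plk1 with a limma adjusted p of 0.01713 in wild type and 0.007192 in knockout. When library sums without the 20 most abundant genes were made equal (equal sums), the Pcna difference in wild type was -0.082. Tk1 then differed by 1.99 in wild type (limma adjusted p = 0.1195) and 1.68 in knockout (limma adjusted p = 0.2029). In that setting 5 of the 9 genes still passed in wild type and 4 in knockout. With quantile normalization the Plk1 difference in wild type was -0.16, and 0 of the 9 genes were called in either comparison.

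The knockout was then compared with wild type after caerulein, to ask whether levels of these genes differed in mice without miR-21. None of the 9 passed the test. In this comparison limma called 0 of 1429 genes (0%), 7 had an unadjusted p under 0.05, with 0 of the 9 genes among them, and 4 genes were called without wild-type replicate 1. The median log2 difference of the 9 genes was -0.09, against 0.10 for all tested genes, and 4 of the 9 differences were positive. Tk1 differed by -0.21 (95% interval -1.89 to 1.47), Mcm3 by -0.34 (-2.09 to 1.42) and Pcna by 0.27 (-1.50 to 2.04). Plk1 had the largest difference and the widest interval, 0.58 (-2.16 to 3.32). Birc5 differed by -0.36 (-2.003 to 1.29), Top2a by -0.42 (-2.62 to 1.78) and Mki67 by -0.09 (-1.77 to 1.59). For Hmgb2 the difference was 0.26 (-1.43 to 1.94) and for H2afz 0.19 (-1.55 to 1.93). Each interval spans more than a 2-fold change in both directions, so a change of that size was not detectable with 2 libraries a group. In 1 of the 9 genes, Birc5, the 2 genotypes did not overlap; this was so for 9.31% of all tested genes.

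**Figure D2:**
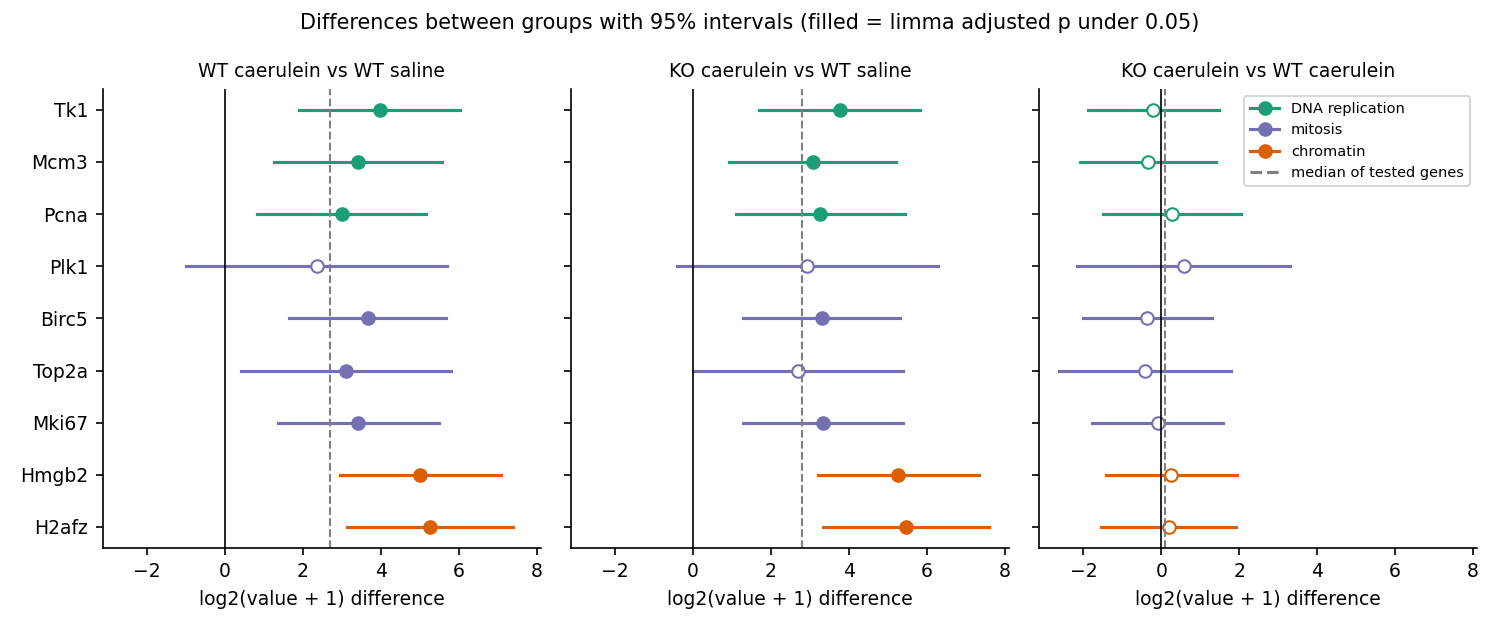
Points give the log2(value + 1) difference of each gene with its 95% interval in the 3 comparisons, coloured by role and filled where limma's adjusted p was under 0.05, and the dashed line is the median of all tested genes. The saline comparisons lie to the right of 0 with 8 and 7 filled points, and the comparison of knockout (KO) with wild type (WT) centres near 0 with no filled point.

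The small differences between genotypes stood beside large differences within them. Knockout replicate 1 had the highest value of the 4 caerulein libraries for 6 of the 9 genes (Tk1, Mcm3, Pcna, Plk1, Mki67 and H2afz), against 30.1% of tested genes. Knockout replicate 3 had the lowest value for 6 of the 9 (Tk1, Mcm3, Pcna, Birc5, Mki67 and H2afz), against 24.4%. Between these 2 libraries of 1 genotype Mcm3 differed 3.70-fold, H2afz 3.47-fold, Pcna 2.74-fold and Plk1 2.54-fold. These counts and shares are descriptions of single libraries and carry no test.

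Replication and mitotic genes were then compared across all 5 libraries. For each library the mean log2(value + 1) of Plk1, Birc5, Top2a and Mki67 was taken from that of Tk1, Mcm3 and Pcna. The size of this number has no meaning of its own, since lengths may not be accounted for. Its change can be read among the caerulein libraries, but that from saline depended on the pseudocount and the scaling. It was 0.997 in saline, 0.94 and 1.70 in wild-type replicates 1 and 2, and 1.70 and 0.90 in knockout replicates 1 and 3. The means were 1.32 ± 0.53 (SD, n = 2) in wild type and 1.30 ± 0.57 (SD, n = 2) in knockout, a difference of -0.02, far less than the spread within a genotype. The balance of replication over mitotic transcripts was thus higher in wild-type replicate 2 and knockout replicate 1 and lower in wild-type replicate 1 and knockout replicate 3, whatever the genotype. Centred on the mean of the 4 caerulein libraries, the replication genes stood at 0.03 and 0.07 in wild type and 0.57 and -0.66 in knockout, and the mitotic genes at 0.39 and -0.32 and at 0.18 and -0.25.

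This split into a higher and a lower pair of libraries was kept in 12 of 12 other settings. These were 3 scalings, another pseudocount, medians over genes, and leaving out each of the 7 genes. All of them reuse these libraries and genes, so they are not independent. Within the pairs the order changed in some, as at equal sums, where wild-type replicate 2 (1.71) lay above knockout replicate 1 (1.67). The gap between the higher and the lower pair, 0.75 as deposited, was smallest with medians, 0.08, and was 0.30 without Top2a. The saline value was 2.56 with a pseudocount of 0.1 in place of 1, and 2.45 at equal sums. In that library 4 of the 7 genes were at 0.01 and Mki67 at 0.02. Other genes of the same 2 classes did not show the split. For 8 further S phase genes minus 10 further mitotic genes the values were 0.15 and 0.15 in wild type and -0.22 and 0.13 in knockout. The split is therefore given for the 7 genes alone and not for their classes.

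**Figure D3:**
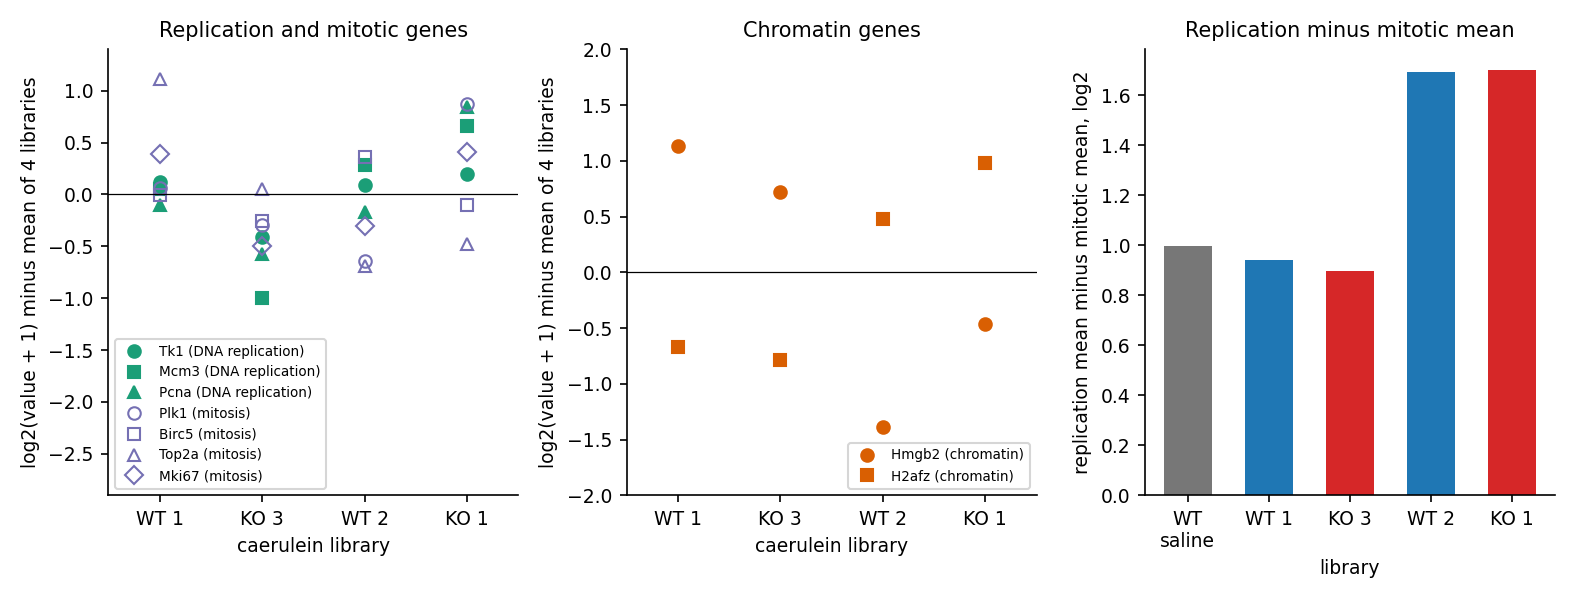
The left and middle panels give log2(value + 1) of each gene minus its mean over the 4 caerulein libraries of wild type (WT) and knockout (KO), and the right panel the replication mean minus the mitotic mean in each library. WT 2 and KO 1 stand at 1.70 and 1.70 in the right panel and WT 1 and KO 3 at 0.94 and 0.90, and Hmgb2 and H2afz lie on opposite sides of 0 in every caerulein library.

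The pairs found in the replication minus mitotic mean, and in Hmgb2 and H2afz, are those found over the whole table. Spearman's rho over the 1429 tested genes (not independent of each other) reached 0.73 for the pair of wild-type replicate 1 with knockout replicate 3, and 0.74 for the pair of wild-type replicate 2 with knockout replicate 1, against 0.35 within wild type and 0.45 within knockout. Hmgb2 differed by 2.52 between wild-type replicates 1 and 2 and by 1.18 between knockout replicates 3 and 1, in log2, above 86.4% and 84.6% of tested genes. H2afz differed by -1.14 and -1.77, with 5.74% and 5.39% of genes lower. Hmgb2 and Top2a were the 2 of 9 genes higher in both wild-type replicate 1 and knockout replicate 3, a pattern seen in 42.8% of tested genes. Mcm3, Birc5 and H2afz, 3 of the 9, were lower in both, as were 22.0% of tested genes. The remaining 4 genes, Tk1, Pcna, Plk1 and Mki67, were higher in the first library named of wild type and lower in that of knockout.

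Other measures moved with these pairs. Over the 1423 tested genes with an annotated transcript, the difference between wild-type replicates 1 and 2 had a Spearman's rho of -0.24 with transcript GC content, and the difference between knockout replicates 3 and 1 one of -0.20. Hmgb2 has the lowest GC content of the 9 transcripts, 38.7%, and Top2a follows with 43.4%, while H2afz has 48.4%, the median of the tested genes. Pcna (45.3%), Mki67 (46.6%) and Birc5 (47.4%) also lay below it, but none was higher in both wild-type replicate 1 and knockout replicate 3. With transcript length rho was 0.01 and -0.01. Markers of stellate cells and fibroblasts (4 of 12 in the table, Col3a1, Pdgfra, Pdgfrb and Postn) summed to 628.52 and 314.19 in wild-type replicate 1 and knockout replicate 3, against 74.53 and 113.3 in wild-type replicate 2 and knockout replicate 1, and to 1.71 in saline. In the knockout this difference was almost all Col3a1, at 271.09 in replicate 3 and 73.25 in replicate 1. In the same libraries Pdgfra was 3.62 and 1.28, Pdgfrb 6.81 and 5.94 and Postn 32.67 and 32.83, while in wild type all 4 markers were higher in replicate 1. The acinar sum was likewise 947.71 and 605.15 against 29.21 and 298.53. The part of GC content and of these cell types in the values of the 9 genes was not tested.

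**Figure D4:**
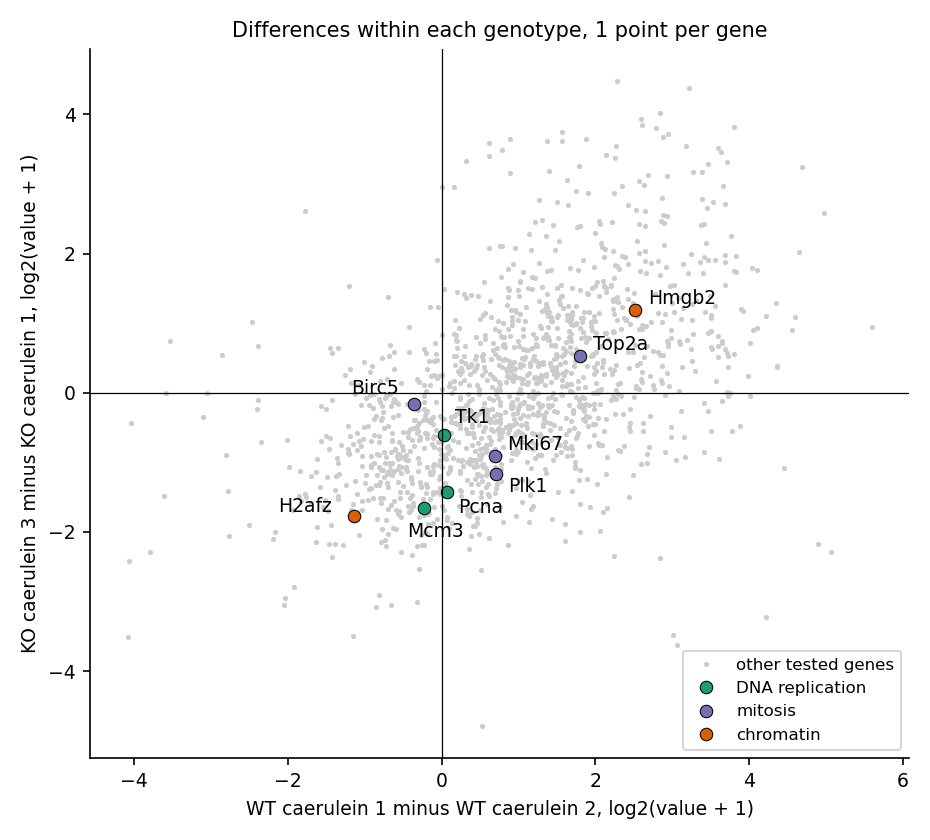
Each point is a gene, with its log2(value + 1) difference between wild-type caerulein replicates 1 and 2 on the horizontal axis and between knockout caerulein replicates 3 and 1 on the vertical axis, grey for other tested genes and coloured by role for the 9. Hmgb2 (2.52 and 1.18) lies at the upper right and H2afz (-1.14 and -1.77) at the lower left.

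Immune and other markers moved in several ways. Monocyte and macrophage markers (7 of 24 in the table) summed to 3.17 in saline, with Emr1, Mrc1 and Ly6c2 at 0.01, and to 311.08 to 419.31 after caerulein. Single markers were less even. Emr1 was 57.43 and 9.27 in wild type and 31.76 and 30.54 in knockout, and Mrc1 41.08 and 2.94, then 11.77 and 10.52. Mpeg1 was likewise highest in wild-type replicate 1 and lowest in replicate 2. Lyz1 and Ctss were also lowest in wild-type replicate 2, but Laptm5 and Ly6c2 were lowest in wild-type replicate 1. Cd79a, a chain of the B cell receptor, was 8.8 in saline, 5.95 and 3.81 in wild type and 39.74 and 0.48 in knockout replicates 1 and 3. Knockout replicate 1, the highest caerulein library for 6 of the 9 genes, thus also had the highest Cd79a. Knockout replicate 3, the lowest for 6 of the 9 (Birc5 in place of Plk1), had the lowest Cd79a. Ptprc, the pan-leukocyte CD45, was the only other of 14 lymphocyte markers in the table and went another way. It was 0.01 in saline, 11.26 and 2.26 in wild type and 7.68 and 4.09 in knockout, highest in wild-type replicate 1. The list, mostly Cd79a in knockout replicate 1, summed to 47.42 and 4.57 in the knockout libraries, 17.21 and 6.07 in wild type and 8.81 in saline. The neutrophil receptor Csf3r (1 of 15) was 8.09 and 21.82 in wild type and 16.26 and 6.69 in knockout, and the endothelial Vwf (1 of 10) 10.15 and 22.93, then 27.77 and 15.25, so both were higher in wild-type replicate 2 and knockout replicate 1, as H2afz was. Krt8, of ducts (1 of 11), was 352.53 and 142.86, then 244.99 and 283.62, and the islet genes Pcsk2 and Slc2a2 (2 of 13) summed to 10.71 and 9.74, then 41.96 and 26.63, against 25.91 in saline. The part of these cells in the result was not tested.

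Other genes of cell division were sparse in the table, which held 46 of 263 symbols searched in 4 lists. In wild type against saline 3 of 8 S phase genes rose, beside 57.3% of all tested genes, and 5 did not pass. The 3 were Slbp, which binds histone mRNA (0.01 to 10.05 and 18.39), Lig1, the ligase of Okazaki fragments (0.01 to 8.38 and 12.37), and Uhrf1, which guides maintenance of DNA methylation (0.01 to 3.98 and 9.83). In the knockout Slbp was 20.64 and 10.65, Lig1 8 and 3.75 and Uhrf1 12.1 and 4.45, and again 3 of 8 rose, beside 60.3% of all tested genes. These 3 were highest in wild-type replicate 2 or knockout replicate 1, as Mcm3 and Pcna were. Mcm6, a partner of Mcm3 in the same helicase, was 1.02 in saline, 12.85 and 0.93 in wild type and 4.37 and 6.82 in knockout, and Rrm1, of ribonucleotide reductase, 0.01, 10.56 and 0.46, then 2.51 and 5.57. Neither passed, and both were highest in wild-type replicate 1, unlike Mcm3. Rpa1, Ctps and Usp1 did not pass in either comparison and were also highest there.

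Of 10 further mitotic genes 4 rose in wild type and 3 in knockout, both smaller shares than the 57.3% and 60.3% of all tested genes. The cohesin genes Smc1a (0.01 in saline, 17.71 and 2.9 in wild type, 14.01 and 14.37 in knockout) and Stag1 (0.01, 9.67 and 9.07, then 17.65 and 9.19) rose in both, as did Cenpa, the centromeric histone (0.74, 14.25 and 6.51, then 9.76 and 11.52). Cenpe, a kinetochore motor, rose in wild type (0.01 to 6.13 and 10.07) and was 6.07 and 5.44 in knockout without passing. Cdc20, the activator of the anaphase-promoting complex, was 0.01 in saline, 5.45 and 3.49 in wild type and 10.73 and 4.72 in knockout. Tpx2, a spindle assembly factor, was 0.01, 7.03 and 3.77, then 10.7 and 4.28. Both showed the order seen for Plk1 in wild type and knockout, and like Plk1 neither passed. Ect2 and Melk were also highest in knockout replicate 1, at 16.4 and 10.69, and lowest in knockout replicate 3, at 1.98 and 1.56. Anapc1 and Cdc16 did not pass, and Cdc16 was listed at 0.01 in saline, wild-type replicate 2 and knockout replicate 1.

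Among 6 genes of G1 and cell cycle control 2 rose in each comparison, the E2F partner Tfdp1 (0.01 in saline, 12.49 and 16.1 in wild type, 8.17 and 6 in knockout) and Ccni, a cyclin-like gene (4.5, 61.71 and 114.9, then 148.35 and 51.38). Ccnd3, Mnat1, Wee1 and Btg1 did not pass. Of 22 further chromatin genes 12 rose in wild type and 15 in knockout, beside 57.3% and 60.3% of all tested genes. Npm1, a histone chaperone of the nucleolus, went from 0.89 to 68.8 and 52.82 in wild type and 39.09 and 47.28 in knockout, and Dek from 0.01 to 33.57 and 9.39, then 39.26 and 18.5. Hmgn2, Hmga1, Rbbp7, H3f3b, Hmgn5, Hmgn1 and Nap1l4 rose in both comparisons. Ran and Set passed in the knockout comparison alone and H2afy in neither, which does not show that the genotypes differ. Hmgn1 and Ran, like Hmgb2, were higher in wild-type replicate 1 and knockout replicate 3, with 108.64 and 175.56 for Hmgn1 in wild-type replicate 1 and knockout replicate 3 against 43.37 and 30.44 in the other two. The medians of the S phase, mitotic, G1 and chromatin lists were 2.15, 2.61, 2.54 and 2.58 in wild type against saline, each below the 2.71 of all tested genes. Between the genotypes 0 of the 46 passed. Over these 46 genes knockout replicate 1 was the highest caerulein library for 11 and knockout replicate 3 the lowest for 9, compared with 6 and 6 of the 9 genes and with 30.1% and 24.4% of tested genes.

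**Figure D5:**
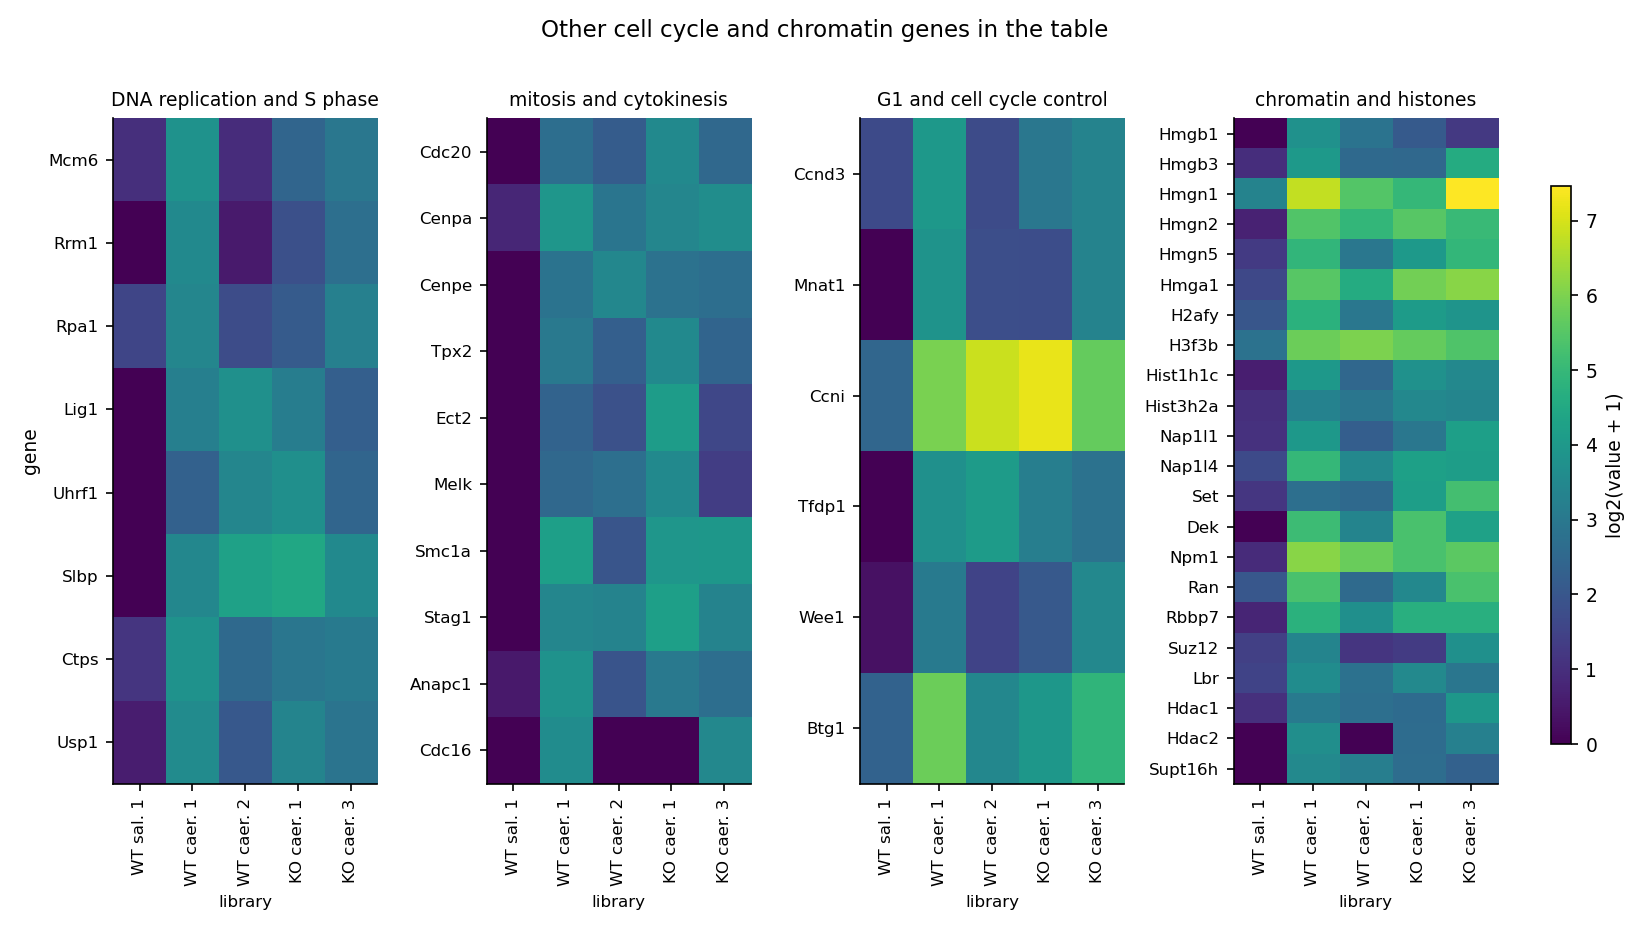
Colour gives log2(value + 1) in each library (saline, sal., and caerulein, caer., of wild type, WT, and knockout, KO) for the 46 other cell cycle and chromatin genes in the table, by list. Most rows are dark in saline, and Mcm6, Rrm1 and Ran are brightest in WT 1 or KO 3 while Slbp and Ccni are brightest in KO 1.

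The genes whose course over the 4 caerulein libraries was nearest to the mean of the replication genes, among 1363 genes with a mean of at least 5, were Heatr1, Msl3, Snrnp40, Ube2v1 and Rnf7, at Euclidean distances of 0.10 to 0.16 on the centred log2 scale. Heatr1, for example, was 7.56 and 8.49 in wild type and 11.9 and 4.77 in knockout. Nearest to the mitotic mean were P4ha2, Nf2, Dpp8, Adamts2 and Setd5, at 0.06 to 0.13. P4ha2, a collagen prolyl hydroxylase, was 13.74 and 8.52 in wild type and 12.32 and 8.94 in knockout. None of the 10 belongs to the cell cycle lists, and over 4 libraries such likeness is a description only.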

How the data were processed

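Poly(A) RNA of whole pancreas was fragmented, primed at random for cDNA synthesis and read on an Illumina instrument, per the labels' protocols. Alignment with Bowtie 0.12.2 and build mm8 appear in the submitters' processing notes. How genes were annotated, quantified and normalized is not stated there or in the labels. Each deposited file holds 1 signal value per gene symbol, unit unstated, for the same 1457 genes, and 1 blank row, which was left out. Without read counts the depth is unknown, and no interval for counting error could be computed.

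Values entered as log2(value + 1) without rescaling. Genes reaching 1 in 2 or more of the libraries (1429) were tested in limma 3.58.1 under R 4.3.3, with group means fitted to the 5 libraries together and trended, robust empirical Bayes variances. P-values are two-sided and Benjamini-Hochberg adjusted over all genes tested, at 0.05. The spread comes from the caerulein libraries, pooled over genes, and that of saline is taken to be equal. A gene's SE was set by its mean level and hardly by its own spread. Birc5 and Hmgb2 varied 1.6-fold and 6.12-fold among the caerulein libraries, yet had SEs of 1.029 and 1.053 in wild type against saline. The lowest genes had larger SEs, 1.71 for Plk1, and so needed larger differences to pass. A count test planned for the case of count files was not needed. The 9 genes, the lists and the contrast of replication with mitosis were chosen with earlier results of these data known. By rule the text names the 9 genes, up to 12 measured genes of each cell cycle list by mean level, and the 5 nearest profiles of each class. Promoters (9 of 9 matched, H2afz as H2az1) are from RefSeq, GRCm38.p6, and GC content and length from the longest coding GENCODE transcript (99.6% of tested genes). The fit was tested on simulated data. Alternatives covered scaling, the filter, the pseudocount, the variance estimate, the libraries in the fit and, for the replication and mitotic means, the genes. Other values were computed in Python 3.11.15.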

Additional observations from a re-analysis of the deposited data

How the results depend on the processing

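No paired analysis was possible because the groups share fewer than 2 replicate numbers. Leaving out Tk1, Mcm3, Plk1, Birc5 or Top2a, and the gap between library pairs, were added after seeing the data. Equal sums are library sums taken without the 20 most abundant genes. Wild type against saline gave 819 calls, but 9 after quantile normalization, 267 at equal sums, 488 among the 851 genes above 0.01 in all libraries (fewer genes tested) and 440 when the 2 groups were fitted alone. Omitting 1 library moved it between 377 and 1080. The 863 calls of knockout against saline became 6, 241 and 542 in the first 3 settings, and 29 to 1028 on omitting a library. Of the 9 genes, the 8 called in wild type became 0, 5 and 4 (4 tested in the last setting), or 5 to 8 on omitting a library, and the 7 called in knockout became 0, 4 and 4, or 1 to 9. Both counts were 9 with a pseudocount of 0.1, and 6 and 9 with the 2 groups fitted alone. Quantile normalization and equal sums force saline to match the other libraries: the median difference of all genes fell from 2.71 to 0.07 and 0.82 in wild type, and from 2.80 to 0.08 and 0.85 in knockout. A pseudocount of 0.1 took it to 3.88 and 4.15. Calls between genotypes stayed at 0 for the 9 genes in every setting run, and ranged from 0 to 4 over all genes on omitting a library, with 4 without wild-type replicate 1.

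In wild type against saline, Plk1 reversed to -0.16 (quantile) and Pcna to -0.082 (equal sums). For 8 of the 9 genes, all but Birc5, the sign between genotypes changed on omitting a library: the range was -0.52 to 0.095 for Tk1, -1.16 to 0.49 for Mcm3, -0.44 to 0.98 for Pcna, -0.002 to 1.16 for Plk1, -1.32 to 0.48 for Top2a, -0.55 to 0.36 for Mki67, -1.003 to 1.52 for Hmgb2 and -0.69 to 1.07 for H2afz. For the replication minus mitotic mean, the change from saline in wild type, 0.32, became -1.14 at equal sums and -1.13 with a pseudocount of 0.1, and the cause was not tested; it was -0.054 to 0.70 on omitting a library, and its difference between genotypes -0.42 to 0.38. The unknown depth and the single saline library limit the precision of all these values.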
